A study of Sus scrofa with 21 samples.

Results

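The protease-activated receptors are the family F2R, F2RL1, F2RL2 and F2RL3, and the array probes that the scanner files name after a member were taken. This gave 4 probes of 2 genes, F2R and F2RL2, among 60305 probes besides controls. F2RL1 and F2RL3 have no probe under their names in the files used here, so no value is given for either. The values are whole blood total RNA, 1 array per pig, of 10 DD pigs and 11 LW pigs. DD is the SLAdd line, an inbred minipig line kept homozygous at the swine leukocyte antigen locus, and LW is Large White, the control breed. All pigs were 60 days old and ate a standard diet freely. The DD pigs came from 5 litters and the LW pigs from 6, so that some animals shared a sow, and both breeds were on each of 3 chips. The family was chosen by the DD against LW difference of these same values, so the levels of its members in the breeds are given as a description, with no test.

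Protease-activated receptors are G protein-coupled receptors of an unusual kind. A protease cuts the outer end of the receptor, and the new end folds back and acts as a ligand tied to its own receptor. F2R (PAR1) is the main thrombin receptor of human platelets and of the endothelium. F2RL3 (PAR4) also answers to thrombin, F2RL2 (PAR3) binds thrombin and helps it to cut other receptors, and F2RL1 (PAR2) is cut by trypsin and mast cell tryptase. Cleaved F2R signals through Gq, G12/13 and Gi proteins to calcium release, RHOA and platelet activation, and arrestins and receptor kinases shut the signal down.

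The probes carry the finding, and those of F2R overlap. F2R probe 1 begins at base 1247 and F2R probe 2 at base 1264 of the reference transcript that the array design names, and the capitals mark the 43 of 60 bases that both hold. The third sequence is that of F2RL2 probe 1, in small letters because it shares no such stretch with F2R.
F2R probe 1: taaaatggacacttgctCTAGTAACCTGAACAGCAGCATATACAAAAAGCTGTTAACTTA
F2R probe 2: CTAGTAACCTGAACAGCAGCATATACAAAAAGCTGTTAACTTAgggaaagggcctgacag
F2RL2 probe 1: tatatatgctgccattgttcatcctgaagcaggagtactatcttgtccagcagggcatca
Neither F2R probe shares a stretch of 20 bases with a probe of another gene on the array. F2RL2 probe 1 shares such a stretch with 1 probe that has no gene name. Because the F2R probes share most of their bases, they are a repeat reading of the same stretch of one transcript and not a second measurement of the gene.

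In RefSeq (Sscrofa11.1), F2RL2 (chr2:85534188-85542062), F2R (chr2:85642794-85659133) and F2RL1 (chr2:85732082-85747552) lie in this order on chromosome 2. F2RL2 lies inside the annotated span of another gene, IQGAP2, which ends 9.1 kb before F2R. F2R starts 100.7 kb after the end of F2RL2, and F2RL1 starts 72.9 kb after the end of F2R. F2RL3 (chr2:60742978-60747014) is on the same chromosome, 24.8 Mb before F2RL2.

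F2R was lower in the DD pigs than in all LW pigs but 1. On the deposited log2 scale, as the mean of both probes, the 10 DD pigs had a lowest level of 6.18, a median of 6.90 and a highest of 7.62. The 11 LW pigs had a lowest level of 6.50, a median of 8.76 and a highest of 9.66. LW_07 was the lowest LW pig and lay below 9 of the 10 DD pigs, the next LW pig stood at 8.13, and 10 of 11 LW pigs were above every DD pig. The mean F2R level of the DD pigs was 6.96 ± 0.40 (SD, n = 10). That of the LW pigs was 8.69 ± 0.83 (SD, n = 11). Without LW_07 the LW mean was 8.91 ± 0.43, so that both breeds then had close to the same spread. In whole blood, fewer cells that carry a transcript and less of it in each cell cannot be told apart. Whether both breeds have the same bases under the F2R probes was not tested.

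**Figure D1:**
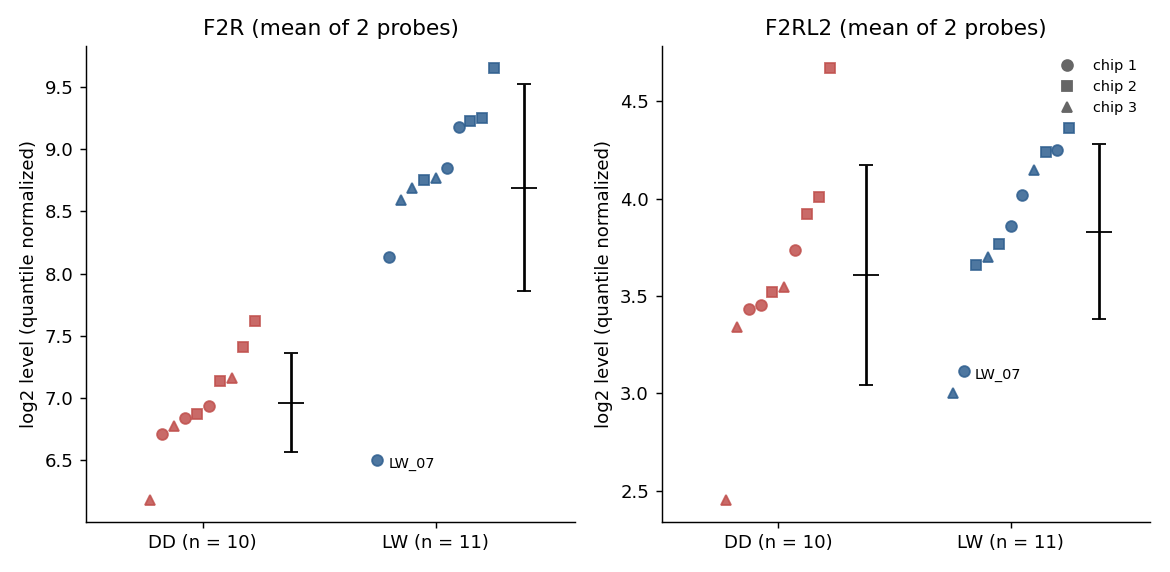
Levels of F2R (left) and F2RL2 (right) in each pig, on the log2 scale of the deposited quantile-normalized values. Each point is 1 pig, its shape gives the chip, and the bar is the mean with its SD. For F2R, 10 of 11 LW pigs lie above every DD pig and LW_07 lies at 6.50, while for F2RL2 the breeds overlap.

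The difference in F2R level was −1.76 (SE 0.23) on the log2 scale, DD minus LW, in the limma fit with chip and litter, or 3.38-fold lower in DD pigs. Of the 34010 genes and transcripts fitted, 20.8% passed an adjusted p of 0.05 and 9.39% passed and were lower in DD pigs. F2R, the only member that entered the fit, is among the latter, and because that contrast chose the family nothing is read from it. F2R stood at place 38 from the lowest difference, and 0.221% of the fitted genes had a larger one in either direction. The median difference of all of them was −0.04, and the median size was 0.23. Scaling each array to its 75th percentile moved that median to 0.07 and the genes that passed from 3875 higher and 3193 lower to 4898 and 2121. Relative to the median, F2R differed by −1.72 on the deposited values and by −1.89 with that scaling. Without LW_07 the F2R difference was −1.94. Leaving out any other pig gave values between that and −1.68.

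Probe 1 of F2R differed by −1.73 (SE 0.24) and probe 2 by −1.78 (SE 0.22). The 2 readings of a pig lay apart by a median of 0.12, and by 0.62 at most, in DD_21, the pig with the lowest level. Both probes were well above background on all 21 arrays. In the scanner's processed signal of probe 1, before any scaling between arrays, the DD pigs had a lowest value of 17.1, a median of 74.3 and a highest of 169. The LW pigs had a lowest value of 42.0 in LW_07, a second lowest of 327, a median of 464 and a highest of 982. In this signal all LW pigs but LW_07 lay above every DD pig, and LW_07 lay within the DD range. The signal also carries how bright each array was. The DD arrays were dimmer and LW_07 was the dimmest LW array, so these values do not give the F2R difference alone.

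**Figure D2:**
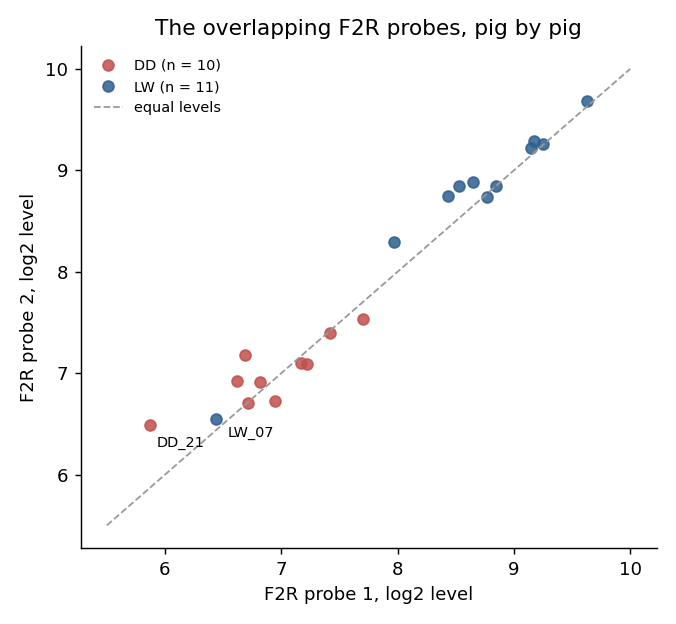
Level of F2R probe 2 against F2R probe 1 on the log2 scale, 1 point per pig, with a dashed line where both are equal. The points follow the dashed line, as the probes share 43 of their 60 bases, and LW_07 lies among the DD pigs on both.

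Arrays of DD pigs were dimmer, so the F2R level is given with array brightness, the log2 75th percentile of an array's processed signal. On chip 1 the F2R difference was −1.34, or −1.89 without LW_07, at a brightness of 7.95 in the 3 DD arrays, 8.02 in the 4 LW arrays and 8.24 in those other than LW_07. On chip 2 it was −1.97 at a brightness of 7.55 in the 4 DD and 8.31 in the 4 LW arrays. On chip 3 it was −1.98 at 7.09 in the 3 DD and 8.36 in the 3 LW arrays. No DD pig overlapped with an LW pig on chips 2 and 3. On chip 1, DD_06 had a bright array at 8.49 and an F2R level of 6.84, whereas LW_05 had 8.62 and an F2R level of 8.13. With brightness as a further term, the difference was −1.32. Its part in the remaining difference was not tested.

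**Figure D3:**
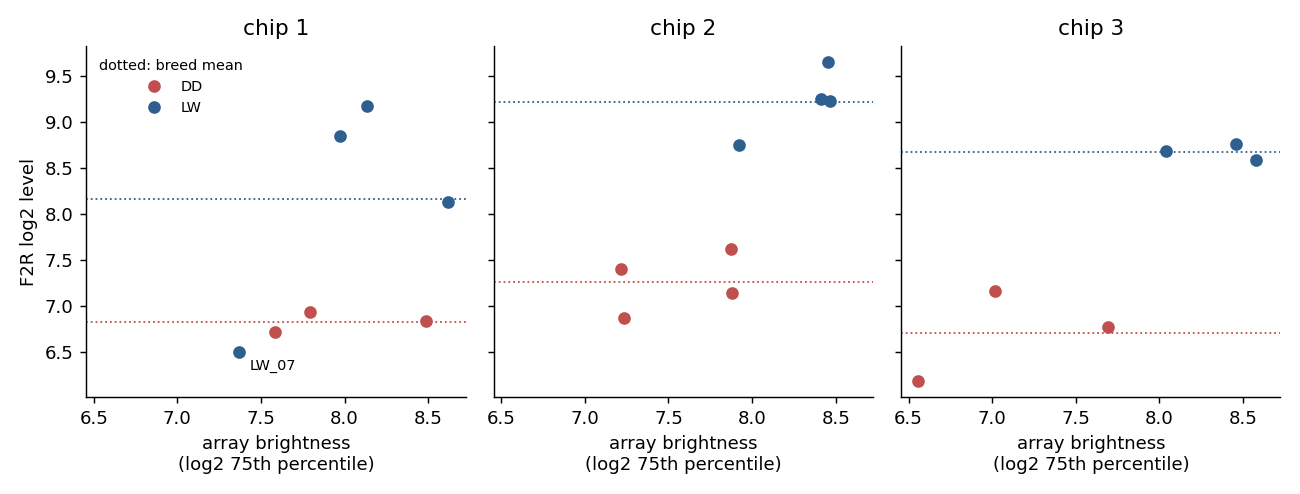
F2R log2 level against array brightness (log2 75th percentile of the processed signal) on each chip, 1 point per pig, with dotted lines at the mean of each breed. LW_07, the dimmest LW array at 7.37, lies with the DD pigs of chip 1, and on chips 2 and 3 the breeds are apart.

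LW_07 stood apart from the other LW pigs in more than F2R. For each LW pig in turn, the genes whose level did not overlap between the DD pigs and the other LW pigs were taken, and it was counted how often the pig lay nearer to its own breed. LW_07 did so in 130 of 189 genes (68.8%), and the other LW pigs in 84.8% to 97.0% of 135 to 151 genes. The genes taken were 0.556% of all fitted genes for LW_07 and 0.397% to 0.444% for the other LW pigs. Its array had 53.2% of the probes well above background, close to LW_15 with 53.0%, the lowest LW value. LW_07 also had the highest summed level of platelet markers among LW pigs. So LW_07 kept to its breed for most of these genes, with F2R among the exceptions.

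DD litter mates were no closer to each other in F2R than DD pigs of different litters. However, litter mates were always on different chips, whereas some pairs from different litters shared a chip. Removing a mean effect per chip does not undo this, so likeness by litter and by chip cannot be told apart. After removal of the chip effect, the 5 DD pairs of litter mates differed by a median of 0.57, with a range from 0.01 to 0.98, and the 40 pairs of DD pigs from different litters by a median of 0.30. The 5 LW pairs differed by a median of 0.37, and the 50 LW pairs from different litters by 0.45, or 0.39 without LW_07. The litter mate of LW_07 is LW_18. Its level was 8.90 against 6.86 in LW_07, a difference of 2.04, while none of the other 4 LW pairs differed by more than 0.52. The low level in LW_07 was not seen in its litter mate, which was on another chip.

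**Figure D4:**
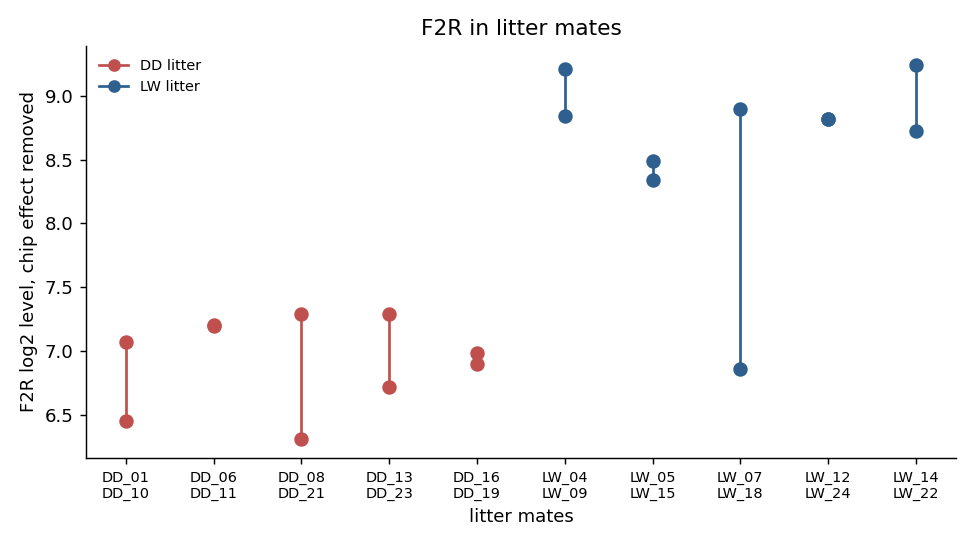
F2R log2 level, with the chip effect removed, in the 10 pairs of litter mates, each pair joined by a line. All DD litter mates lie below all LW litter mates except LW_07, and the line from LW_07 to LW_18 spans 2.04.

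F2RL2 was at the level of the array's background in nearly all pigs. Its probes lay above only 11.4% and 21.9% of all probes by their mean level, under the filter that removed the lowest 25% of the probes. No DD array had either probe well above background, and 1 probe was so on 1 LW array, that of LW_15. The DD pigs had a log2 F2RL2 level of 3.61 ± 0.57 (SD, n = 10), between 2.45 and 4.67. The LW pigs had 3.83 ± 0.45 (SD, n = 11), with a highest level of 4.37. The breeds overlapped, and the difference of −0.22 was smaller than the spread within a breed, 0.45. With the signal at background in both breeds no fold change is given. In these data the family is thus readable through F2R alone.

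The following genes of the receptor's pathway did not choose the family, and their differences come from the same fit, with p-values adjusted over all 34010 genes by limma. Beside each list, the share of all genes that passed was 11.4% higher and 9.39% lower in DD pigs. The lists were written with earlier results of these data known.

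Of the proteases that can cut the receptors, 23 of 29 had a probe and 18 entered the fit. In DD pigs 2 rose and 0 fell, and the median difference was 0.16. ELANE, neutrophil elastase, rose by 0.49 (SE 0.17, limma adjusted p = 0.0479). TMPRSS11D, an airway trypsin-like protease, rose by 0.43 (SE 0.14, limma adjusted p = 0.0363). Both were close to the threshold. ELANE kept its call with 4 and TMPRSS11D with 10 of the 21 pigs left out in turn, and neither passed it with array brightness in the model (limma adjusted p = 0.976 and 0.986). F2, prothrombin, the liver-made source of thrombin, was read at 4.37 ± 0.48 in DD and 4.63 ± 0.38 in LW pigs and was well above background on 1 of 10 DD and 7 of 11 LW arrays (difference −0.25, limma adjusted p = 0.288).

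Of the cofactors and inhibitors of thrombin, 17 of 20 entered the fit, 2 rose and 3 fell in DD pigs, and the median difference was 0.13. THBD, thrombomodulin, which turns thrombin towards protein C, had the largest decrease of the list. The level of THBD in DD pigs had a lowest value of 4.97, a median of 5.86 and a highest of 6.23, and in LW pigs 5.79, 6.66 and 8.19. It fell by 1.07 (SE 0.22, limma adjusted p = 0.00322), with some overlap of the breeds.
A2M, the general protease trap alpha-2-macroglobulin, fell by 0.85 (SE 0.20, limma adjusted p = 0.00857). SERPINE2, protease nexin-1, a thrombin inhibitor of platelets and other cells, fell by 0.82 (SE 0.19, limma adjusted p = 0.00912), but it was well above background on only 2 of 10 DD and on 9 of 11 LW arrays, which leaves the amount uncertain. It ran from −1.38 to −0.29 over the alternatives, and the call was lost with no filter, on the probe with the highest mean and without chip 2. PROCR, the endothelial protein C receptor, rose by 0.65 (SE 0.19, limma adjusted p = 0.0275), a call kept with 15 of the 21 pigs left out in turn. With brightness in the model only SERPINE2 of these passed the threshold (limma adjusted p = 0.0371), and THBD kept a difference of −0.81 (limma adjusted p = 0.190).

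Of the G proteins, arrestins and effectors through which the receptors signal, 51 of 65 entered the fit. In DD pigs 0 rose and 9 fell, 17.6% of the list, with a median difference of −0.11 against −0.04 for all genes. Whatever their p, 37 of the 51 genes were lower in DD pigs, and of all genes 54.5% were lower. RGS2, which ends signalling by Gq, the G protein that couples F2R to calcium, had the largest decrease of the 51 fitted genes. Its level in DD pigs had a lowest value of 8.34, a median of 8.82 and a highest of 9.50, and in LW pigs 8.99, 10.03 and 10.73. The lowest LW value was that of LW_07, as for F2R. RGS2 fell by 1.04 (SE 0.18, limma adjusted p = 0.000668), and it passed the threshold in 13 of 13 other ways of processing and with each of the 21 pigs left out. RGS18, also on the list, has no probe under its name in the files used here. The paper, with its own naming of the probes, lists RGS18 among its most downregulated genes, with a larger decrease than that of RGS2 here.
RASGRP2, the calcium sensor that switches on RAP1 in platelets, fell by 0.64 (SE 0.17, limma adjusted p = 0.0178). PIK3CG, the phosphoinositide kinase driven by G protein beta-gamma subunits, fell by 0.56 (SE 0.14, limma adjusted p = 0.0115). GRK5, a kinase that marks active receptors for arrestin, fell by 0.55 (SE 0.15, limma adjusted p = 0.0183). With brightness in the model the list had 2 calls, RGS2 among them, against 2.16% of all genes.

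Of the G proteins to which the receptors couple directly, GNA12, named after its value was seen, was among the 9 that fell, by 0.38 (SE 0.12, limma adjusted p = 0.0324). It passed in 18 of 35 fits, the reported one included, with adjusted p up to 0.432. GNAQ and GNA13 did not pass the test. GNAQ was at 5.35 ± 0.34 in DD and 5.51 ± 0.45 in LW pigs (difference −0.14, limma adjusted p = 0.505). GNA13, which links the receptors to RHOA, was at 6.75 ± 0.29 and 6.77 ± 0.23 (difference −0.02, limma adjusted p = 0.904). The differences of GNAQ and GNA13 were smaller than the spread within a breed, and GNA13 changed sign under some alternatives.

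Of the receptors that work beside F2R on platelets, 13 of 20 entered the fit, 1 rose and 0 fell in DD pigs, and the median difference was 0.02. ADRA2A, the platelet adrenaline receptor, rose by 0.48 (SE 0.15, limma adjusted p = 0.0338), a call kept with 12 of the 21 pigs left out in turn. It did not pass with brightness in the model (limma adjusted p = 0.960). GP1BB, a subunit of the von Willebrand factor receptor named after its value was seen, differed by −0.58 (limma adjusted p = 0.188) and, with brightness, by −1.50 (limma adjusted p = 0.00988). The fit with brightness was the only 1 of 35 fits in which GP1BB passed, and its difference ran from −1.50 to −0.40 over them.

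**Figure D5:**
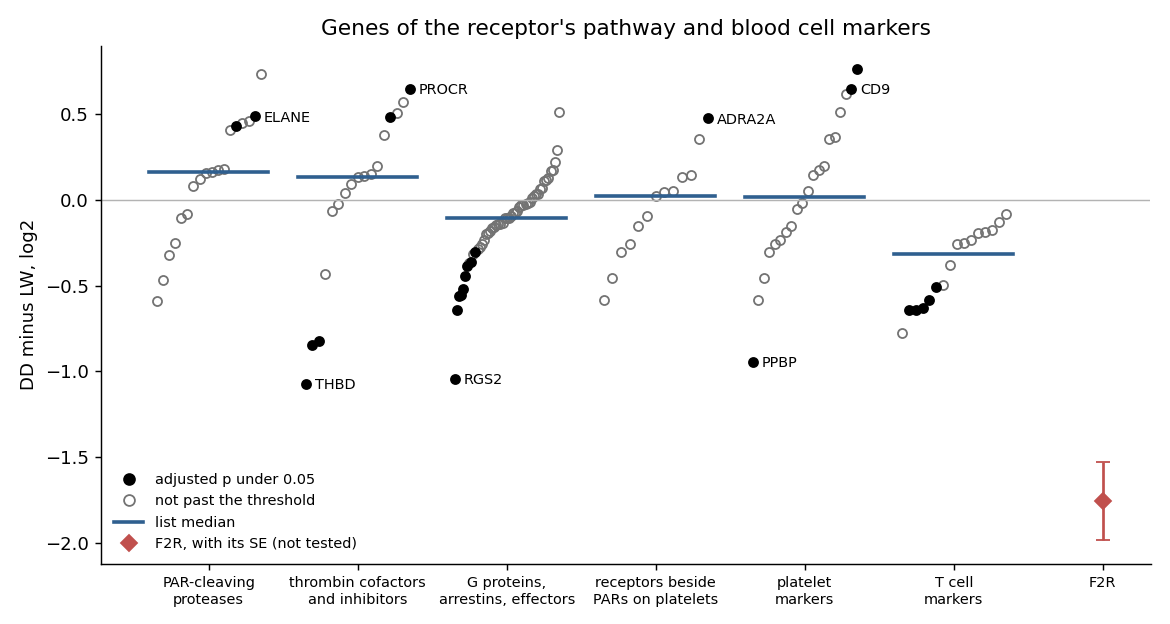
Difference between DD and LW pigs on the log2 scale for each fitted gene of the pathway lists and of the platelet and T cell markers, with F2R and its SE at the right. Filled points passed a limma adjusted p of 0.05, open points did not, and the blue lines are list medians. F2R, at −1.76, was chosen by this difference. Of the other genes shown, THBD (−1.07) and RGS2 (−1.04) are the lowest. List genes without a named probe, such as RGS18, are not shown, and the fit has no brightness term.

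Markers of the blood cells that could carry F2R were set beside it. Genes that rose or fell are again those past the threshold. Of all genes, 11.4% passed and were higher and 9.39% passed and were lower in DD pigs. Of 20 fitted platelet markers, 2 rose and 1 fell in DD pigs, with a median difference of 0.02. Their summed level, on the linear scale of the normalized values, ran from 13118 to 36305 in DD pigs and from 15770 to 43530 in LW pigs, the highest being LW_07. ITGA2B, the integrin subunit that defines platelets, differed by −0.15 (limma adjusted p = 0.674) and GP9, of the von Willebrand factor receptor, by 0.15 (limma adjusted p = 0.474). PPBP, a chemokine of platelet granules, fell by 0.94 (SE 0.32, limma adjusted p = 0.0415), and this call held in 3 of 13 other ways of processing and with 5 of the 21 pigs left out in turn. With brightness in the model PPBP differed by −1.94 (limma adjusted p = 0.000375) and ITGA2B by −0.81 (limma adjusted p = 0.0918). CD9, a tetraspanin, rose by 0.65 (SE 0.14, limma adjusted p = 0.00514), and GFI1B, a megakaryocyte and erythroid transcription factor, by 0.76 (SE 0.22, limma adjusted p = 0.0251). With brightness neither passed (limma adjusted p = 0.0987 for CD9 and 0.996 for GFI1B). PF4 has no probe under its name in the files used here.

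Of 16 fitted T cell markers, 0 rose and 5 fell, all 16 were lower in DD pigs, and their median difference was −0.32. Their summed level ran from 6829 to 15657 in DD pigs and from 9480 to 17652 in LW pigs, with LW_07 at 12471. Of 17 fitted markers of cytotoxic and NK cells, 0 rose and 1 fell, with a median of −0.30 and sums from 125526 to 192740 and from 126341 to 257693. Erythroid markers had 6 of 14 genes called up and a median of 0.63, and the 13 genes of mitochondrial DNA had 11 called up and a median of 0.81. Whatever their p, 12 of the erythroid and 13 of the mitochondrial genes were higher in DD pigs. Monocyte markers had 1 of 13 called up and 2 called down, granulocyte markers 1 of 9 up and B cell markers 1 of 11 up. Eosinophil and basophil markers had 1 of 5 called up and endothelial markers 2 of 8, and none of these lists had another call. Whatever their p, 7 monocyte markers were higher and 6 lower, granulocyte markers 6 and 3, and B cell markers 9 and 2. Eosinophil and basophil markers had 4 higher and 1 lower, endothelial markers 6 and 2, and cytotoxic and NK cell markers 5 and 12. These list medians, and the −1.76 of F2R, by which the family was chosen, come from the fit without brightness. With brightness in the model F2R differed by −1.32. Of the named platelet markers, PPBP then differed by −1.94, GP1BB by −1.50, ITGA2B by −0.81, GP9 by −0.16, GFI1B by 0.02 and CD9 by 0.63. GP1BB was named after its value was seen, and the other fitted platelet markers are not given with brightness. The part of the cell makeup in the F2R difference was not tested.

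Genes that lie near the receptors were also read. Within 1 Mb of F2RL2, F2R or F2RL1, 8 of 21 annotated genes entered the fit, and 2 passed the threshold. ANKDD1B rose by 0.51 (SE 0.18, limma adjusted p = 0.0465). TBCA, a tubulin folding cofactor, fell by 0.42 (SE 0.11, limma adjusted p = 0.0145) and is named after its value was seen. ANKDD1B lay 953 kb and TBCA 922 kb from F2R. IQGAP2, the fitted gene nearest to F2R and also named after its value was seen, differed by −0.12 (limma adjusted p = 0.445). It was well above background on 0 of 10 DD and 0 of 11 LW arrays. Within 1 Mb of F2RL3, 33 of 69 genes entered the fit and 5 passed. PLVAP, a protein of endothelial vesicle diaphragms, fell by 1.00 (SE 0.16, limma adjusted p = 0.000256) and passed in 13 of 13 other ways of processing and with each pig left out. BST2, tetherin, rose by 0.66 (SE 0.19, limma adjusted p = 0.0259), SLC5A5, the sodium iodide symporter, by 0.60 (SE 0.20, limma adjusted p = 0.0359), CHERP by 0.51 (SE 0.15, limma adjusted p = 0.0266) and GTPBP3, a mitochondrial tRNA modifier, by 0.49 (SE 0.14, limma adjusted p = 0.0223). With brightness PLVAP was the only neighbour that passed, at −0.99 (limma adjusted p = 0.0143). SLC5A5 kept its call with 11 and ANKDD1B with 7 of the 21 pigs left out in turn. Over both places 7 of 41 genes passed, 17.1%, which is near the 20.8% of all genes.

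The genes that varied most like F2R among pigs of one breed were found by Pearson's r of the residuals left after breed and chip were removed, over 21 pigs. The genes named here were taken only from fitted genes with a gene name, so unnamed transcripts could rank higher. The highest were PIGF, of glycosylphosphatidylinositol anchor synthesis (0.80), RETSAT, retinol saturase (0.76), RAB14, a small GTPase of endosomes (0.76), CCDC25 (0.75) and PXMP4, a peroxisomal membrane protein (0.75). The most opposed were BNC1, a zinc finger protein (−0.87), MAP3K10, a kinase upstream of JNK (−0.85), ATP1B4 (−0.84), ALKBH3, a nucleic acid demethylase (−0.83), and GHR, the growth hormone receptor (−0.82). None of the 10 passed the threshold between the breeds. All genes of a pig come from its 1 array.
The size of r depended in part on LW_07. BNC1 stood at 9.03 in LW_07, against a mean of 4.50 over all LW and 3.94 over DD pigs. Without LW_07 the r of the first group fell to values between 0.38 and 0.58, and that of the second to values between −0.48 and −0.27. Within the 10 DD pigs alone it was 0.92 for PXMP4, 0.68 for PIGF, 0.64 for RAB14, 0.61 for RETSAT and 0.19 for CCDC25, and it lay between −0.63 (ATP1B4) and −0.40 (ALKBH3) for the second group. By list, the median r with F2R was 0.33 for B cell markers, 0.25 for T cell markers, −0.28 for platelet markers and −0.39 for erythroid markers, against 0.09 for all genes. Without LW_07 these were 0.05, 0.15, −0.12 and −0.01, against 0.01. With array brightness removed as well as breed and chip, they were 0.13, 0.07, 0.09 and −0.03, against 0.02, so that the platelet median changed sign.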

How the data were processed

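Total RNA of whole blood from 21 pigs was measured on a custom Agilent pig array with a single dye, 1 array per pig. The authors processed 24 animals on 3 chips and removed 3 arrays as outliers. The deposited log2 values are the authors' matrix, background corrected with normexp, put on the log2 scale and quantile normalized between arrays. The deposited scanner files hold each probe's intensity, read with Agilent Feature Extraction 10.7.3.1 per the submitters' processing notes, and its flag for a signal well above background. Precision is limited by how many arrays there are, and the probes well above background made up 44.7% to 63.8% of an array.

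Probes were named by the symbol of the scanner files (21124), by accession (1900) or through older symbols (609), and letter case was ignored, since 1 F2RL2 probe is spelled in small letters. The other 36673 kept the name of the file. The 25% of probes with the lowest mean were removed (a mean under 3.97), which left 45229. Kept probes of a gene were averaged, which gave 34010 genes and transcripts, 9860 of them with a gene name. Differences were fitted in limma with fixed terms for breed and chip and a random block for litter (duplicateCorrelation, consensus −0.11). Tests were two-sided, moderated by eBayes and adjusted by Benjamini-Hochberg, with a threshold of 0.05. Of all genes, 12413 had an unadjusted p under 0.05. F2RL2, under the filter, was fitted by the same linear terms without the block. Values recomputed from the scanner intensities correlated with the deposited ones at 0.998 to 0.999 on each array.

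The members and the lists were chosen with earlier results of these data known. The genes named are the members; in each pathway list and among platelet markers the 4 genes past the threshold with the largest difference; ITGA2B, GP9, PF4, PPBP, GNAQ, GNA13, F2 and THBD whatever their value; the 5 genes most like F2R and the 5 most opposed; and at most 6 neighbours within 1 Mb past the threshold. Positions come from RefSeq, Sscrofa11.1, the assembly to which the study's methods mapped the probes. Where samples of a breed share a sow, p-values rest on the litter block. Its consensus was below 0, and more genes passed with the block (7068) than without it (4796). ELANE, TMPRSS11D, ADRA2A, PPBP, SLC5A5 and ANKDD1B were among the named genes that lost their call without the block. Other ways of processing were recomputed values with an offset of 0 and of 50, 75th percentile scaling, no filter, a filter on signal above background, only the brightest probe of a gene, a fit per probe, no litter block, no chip term, each chip left out, array brightness as a covariate, each pig left out, and, chosen after seeing the data, leaving out LW_07 or LW_07 with LW_15. The fit was tested on simulated data. Python 3.11.15 (pandas 2.3.3) and R 4.3.3 were used, with the R packages limma 3.58.1 and statmod 1.5.0.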

Additional observations from a re-analysis of the deposited data

Results flagged for a closer look

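A pig of the DD group far from the other 9 was found for both probes of F2RL2, among 6 sets of DD values examined (the 4 probes and the means of F2R and of F2RL2). For F2RL2 probe 1 the level of DD_13 was 5.22 and the next highest 3.89, a gap of 0.59 of the range of the DD pigs. For F2RL2 probe 2 the level of DD_21, the dimmest array of all, was 1.46 and the next lowest 3.35, a gap of 0.63 of the range. Neither value was well above background. Chance alone flags about 1 in 20 such sets.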

How the results depend on the processing

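F2R stayed lower in DD pigs in the 13 other ways of processing that kept all pigs or left out a chip, with differences from −1.97 (without chip 1) to −1.32 (array brightness as covariate), and from −1.94 to −1.68 with each pig left out. Without LW_07 and LW_15 together it was −2.01. The F2RL2 difference ran from −0.31 to −0.13 with each pig left out. It was 0.12 with brightness as covariate and 0.55 with 75th percentile scaling, at a level near background. No paired analysis was possible because the DD and LW pigs are different animals from different sows. F2RL1 and F2RL3 gave no value under any alternative, and for F2RL2 the fit per probe, the fit without litter block and the filter on signal were not run.

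The number of genes past the threshold moved more than F2R did. It was 7068 as reported, 4316 without a filter, 4796 with no litter block and 1850 with no chip term. It was 4709 without chip 2, 516 without chip 3 and 734 with brightness as a covariate. With each pig left out it ran from 3524 (without DD_21) to 9548 (without DD_06), and it fell by more than 1.5 times also without DD_01, DD_10, DD_23, LW_05, LW_12, LW_18, LW_22 or LW_24. With no chip term 66.2% of these genes were lower in DD pigs, against 45.2% as reported and 30.2% with 75th percentile scaling.

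The calls among PAR-cleaving proteases (2 as reported) were 0 with no filter, no litter block, no chip term, without chip 2, without chip 3 and with brightness, 4 without chip 1, 4 without LW_07 and LW_15, and 0 to 5 with each pig left out, where every pig but DD_11, LW_07 and LW_15 moved the count by more than 1.5 times. Cofactors and inhibitors (5) had 2 with no filter, 3 with no chip term or without chip 2, 1 without chip 3 or with brightness, and 3 to 7 with a pig left out, 3 being without DD_10, DD_21, LW_12, LW_18, LW_22 or LW_24. G proteins and effectors (9) had 1 with no chip term or without chip 3, 2 with brightness, and 5 (without LW_18) to 16 (without DD_06) with a pig left out. Receptors beside PARs on platelets (1) had 2 with an offset of 50, with 75th percentile scaling, on probes above background, on the probe with the highest mean, without chip 1 and without LW_07 and LW_15. They had 3 per probe, 0 with no filter, no litter block, no chip term, without chip 2 and without chip 3, and 0 to 2 with a pig left out, 2 without DD_06 or LW_07 and 0 without DD_01, DD_10, DD_19, DD_21, DD_23, LW_05, LW_12, LW_18 or LW_24. Neighbours (7) had 2 with no chip term and 1 without chip 3 or with brightness. Of the 5 genes most like F2R, 3 were among the top 50 within LW pigs alone, 2 with 75th percentile scaling and 2 without LW_07.

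With brightness the differences of ELANE, SLC5A5, ANKDD1B, GP9, GNA13 and F2 changed sign, to −0.055, −0.048, −0.047, −0.16, 0.095 and 0.13. Without chip 3, GNA13 was 0.017 and F2 0.018, and without chip 2 ITGA2B was 0.0012. GP9 on its brightest probe was −0.092. GNA13 ran from −0.047 to 0.034 with a pig left out, and was above 0 without DD_08 (0.0095), DD_21 (0.034) or LW_15 (0.016). The cause of these changes was not tested.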
